A study of Mus musculus with 51 samples.

Results

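The 10 core circadian clock genes were taken by symbol from the gene tables of 6 mouse tissues. They are the activators Arntl (also known as Bmal1), Clock and Npas2, the period genes Per1, Per2 and Per3, the cryptochromes Cry1 and Cry2, and the nuclear receptors Nr1d1 and Nr1d2 (REV-ERBα and REV-ERBβ). They make up 10 of the 14606 genes listed in at least 1 of the tables. All 10 were listed in 5 tables and 8 in liver, where Npas2 and Per1 lay below the authors' minimum level and were not tested, which left 58 tests of a member in a tissue.

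The clock is a feedback loop of transcription that runs in nearly every cell. ARNTL pairs with CLOCK or NPAS2 and switches on the Per, Cry and Nr1d genes through E-box sequences; the PER and CRY proteins then inhibit the pair, and NR1D1 and NR1D2 repress Arntl through elements that they share with the ROR receptors. In most tissues Arntl transcripts are therefore abundant at the time of day when those of Per, Nr1d and the output gene Dbp are scarce, and clocks in gut, liver and fat are known to follow the time of feeding and glucocorticoid hormones.

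Male C57Bl6 mice with obesity from a high-fat diet were studied 9 weeks after either of 2 operations. In Roux-en-Y gastric bypass (RYGB) a small stomach pouch empties directly into the jejunum, and in the sham operation the gut keeps its course. Both arms first received liquid elemental food and then went back by steps to high-fat food; the rations of the sham mice were cut so that their weight matched, and the operation and these rations cannot be told apart. All mice had fasted overnight and were killed at 10 am. Only 1 time of day was thus sampled, so a shifted cycle and a changed level of a clock transcript cannot be told apart, and the labels do not record the hours at which either arm ate. The libraries were 4 RYGB and 5 sham for duodenum, 4 RYGB and 5 sham for jejunum, 2 RYGB and 5 sham for ileum, 5 RYGB and 4 sham for liver, 4 RYGB and 5 sham for white adipose tissue (WAT), and 4 RYGB and 4 sham for gastrocnemius muscle. They came from 5 RYGB animals (coded R1 to R5) and 5 sham animals (W3, W11, W12, W14 and W15), most of which gave several tissues. The gut samples were scraped villi, and the labels do not name the bypass limb behind the jejunal samples. Of the muscle RYGB libraries, a source field speaks of sham while title and surgery field name RYGB, and title and surgery field were followed.

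Values are CPM, which relate a gene's reads to all counted reads of its library. The authors deposited them with 1 decimal, and they summed to between 978879 and 993560.1 per library over the listed genes. In 5 liver libraries the steps between low values correspond to 4220000 to 5130000 counted reads, and for the remaining 46 no depth can be read from the values. Defining markers of each tissue were present: 8 of 8 enterocyte markers in each gut segment, 8 of 8 hepatocyte markers in liver, 8 of 8 adipocyte markers in WAT and 8 of 8 muscle fibre markers in muscle. Pancreatic transcripts (14 of 15 listed) made up 0.0663% to 1.53% of CPM in RYGB duodenum and 0.0892% to 8.61% in sham duodenum, where 3 of the 5 libraries were above 1%. Hepatocyte markers (7 of 8 listed) held 0.282% to 1.65% of CPM in RYGB WAT and 0.0487% to 0.159% in sham WAT. The higher sum was not common to these markers. By the limma test described below, 1 of the 7 rose and 2 fell, with a median log2 fold change of -0.47. Smooth muscle markers in WAT (4 of 6 listed) held 0.00916% to 0.0199% in RYGB libraries and 0.0381% to 0.116% in sham libraries. Singly, 1 of these 4 rose and 2 fell by the same test, with a median of -0.79. In ileum, sham library 4 held 4.16% Paneth cell transcripts, against at most 0.0689% in the RYGB libraries. Paneth cell markers in jejunum (5 of 6 listed) held 0.0222% to 0.04% of CPM in RYGB libraries and 0.00302% to 0.0117% in sham libraries, and macrophage markers in liver (6 of 6 listed) 0.015% to 0.0565% in RYGB and 0.0144% to 0.0198% in sham libraries. Duodenal Paneth cell markers (5 of 6 listed) held 0.00923% to 0.0409% in RYGB and 0.00232% to 0.00687% in sham libraries, and duodenal crypt proliferation markers (9 of 10 listed) 0.00498% to 0.0781% in RYGB and 0.00358% to 0.00602% in sham libraries. In muscle, adipocyte markers (8 of 8 listed) held 0.00967% to 0.0234% in RYGB and 0.0238% to 0.0341% in sham libraries, and red blood cell markers (5 of 5 listed) 0.00863% to 0.0411% in RYGB and 0.00263% to 0.00714% in sham libraries. In tissue samples, fewer cells of a type and less RNA per cell cannot be told apart. Duodenum was also fitted without the libraries above 1% pancreatic transcripts, which kept RYGB libraries 1, 3 and 4 and sham libraries 4 and 5. The part of the other marker differences in the clock results was not tested.

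Per tissue, RYGB was compared with sham by limma on log2(CPM + 1), with Benjamini-Hochberg adjustment over all genes of that table; log2 fold changes are RYGB minus sham with their standard error (SE), means carry the SD, and "rose" and "fell" are kept for an adjusted p below 0.05. Of the 58 tests, 3 members rose and 9 fell. The calls were in jejunum (2 rose, 3 fell), liver (1 rose, 1 fell) and WAT (5 fell). Over all genes, 12.6% passed in jejunum, 4.63% in liver and 40.6% in WAT, so the 5 of 10 members called in WAT stand near the background of that tissue, and the 5 of 10 in jejunum and 2 of 8 in liver above theirs. With 1 library left out, the calls over all jejunal genes, 1390 of 11021, were 484 to 752 without RYGB library 1 or 3 or sham library 1, 2, 3 or 4 (4 or 5 members called), and numbered 2258 without RYGB library 4 (7 members). Those in liver, 476 of 10285, were 3 to 14 without RYGB library 2, 3 or 4 or sham library 2, 3 or 4 (0 or 1 members), and 1046 to 2253 without RYGB library 1 or 5 or sham library 1 (1 to 4 members). By direction, 6.32% of genes rose and 6.29% fell in jejunum, 2.03% rose and 2.6% fell in liver, and 14.3% rose and 26.3% fell in WAT; after median-of-ratios scaling the WAT calls split evenly, at 2681 genes that rose and 2593 that fell, against 1812 and 3341 in CPM. No member passed in duodenum, ileum or muscle by limma. At an unadjusted p below 0.05 there were 7 members of 10 in duodenum and 1 each in ileum and muscle, where 22.7%, 3.64% and 7% of all genes in these tables did so, and 0.348%, 0% and 0% of all genes passed after adjustment. The median log2 fold change of the listed members was -0.60 in duodenum, -0.73 in jejunum, -0.46 in ileum, -0.07 in liver, -0.57 in WAT and -0.01 in muscle, where the medians over all genes were 0.15, 0.08, -0.09, 0.26, -0.16 and 0 in the same order. CPM sets the level of every gene against the library's total, and scaling by median of ratios moved log2 fold changes by 0.16 in duodenum, 0.18 in liver and -0.17 in WAT (CPM minus scaled).

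**Figure D1:**
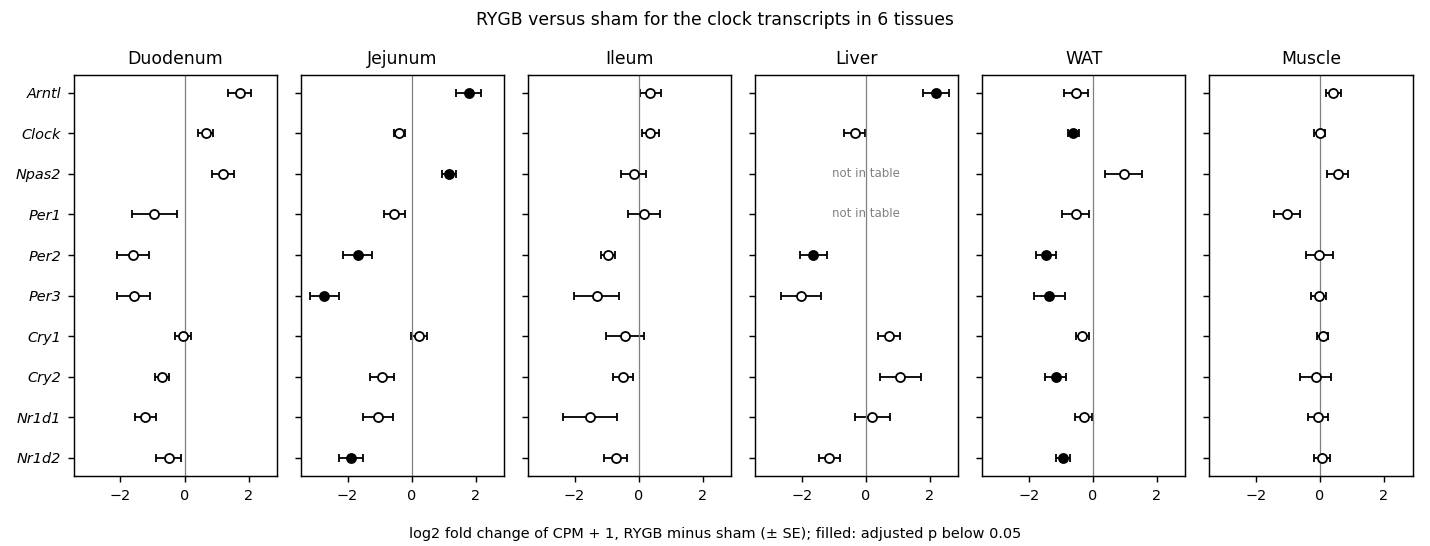
Log2 fold change of CPM + 1 (RYGB minus sham, horizontal axis, ± SE) for each of the 10 clock genes in each of 6 tissues; filled points have an adjusted p below 0.05. Arntl and Npas2 lie right of 0 and Per2, Per3 and Nr1d2 left of it in jejunum, and in muscle Per1 alone has a mean difference beyond 1 in size, without passing the test.

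Arntl, the partner that both CLOCK and NPAS2 need, was 3.63 times as abundant in RYGB as in sham jejunum and 6.02 times as abundant in RYGB as in sham liver, comparing mean CPM. In jejunum its level was 23.5, 36, 49.2 and 73.4 CPM in the RYGB libraries, against 6.2, 10.2, 14.7, 9.5 and 22.1 CPM in the sham libraries. The groups did not overlap, which held for 7.53% of all genes with RYGB higher, and Arntl rose (log2 fold change 1.78 ± 0.38, adjusted p = 0.0177). In liver it was 16.9, 36.5, 9.3, 17 and 22.6 CPM after RYGB, against 2.9, 3.1, 2.5 and 5.1 CPM after sham. Again every RYGB library was above every sham library, as for 4.34% of liver genes with RYGB higher, and Arntl rose (2.19 ± 0.41, adjusted p = 0.0303). The liver call was lost without RYGB library 2 (adjusted p = 0.0891), RYGB library 4 (adjusted p = 0.0746), sham library 2 (adjusted p = 0.066), sham library 3 (adjusted p = 0.12) or sham library 4 (adjusted p = 0.0893), with log2 fold changes of 1.96 to 2.36 in those fits.

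In duodenum, the segment that food no longer crosses after RYGB, Arntl stood at 34, 24.1, 33.8 and 77.6 CPM in RYGB libraries and at 9.7, 10.6, 8.3, 8.5 and 21.6 CPM in sham libraries. The groups did not overlap (5.88% of duodenal genes with RYGB higher), but the difference of 1.72 ± 0.35 missed the threshold (adjusted p = 0.054). Without sham library 5 it was 1.94 with an adjusted p of 0.00831, and without RYGB library 3 it was 1.77 with an adjusted p of 0.0196. Without the libraries rich in pancreatic transcripts it was 1.64 with an adjusted p of 0.939. That fit kept only RYGB libraries 1, 3 and 4 and sham libraries 4 and 5, and 0 of 10930 genes passed in it. Arntl in WAT was 5.2, 22.1, 17.6 and 20.7 CPM after RYGB and 16, 27.6, 20.8, 14.5 and 32.1 CPM after sham, with overlapping groups (-0.52 ± 0.38, adjusted p = 0.294). Ileum, at 44.7 and 74.8 CPM in RYGB against 30.1 to 60.7 CPM in sham libraries, and muscle, at 25 to 49.5 CPM in RYGB against 22.4 to 35.4 CPM in sham libraries, also overlapped and did not pass.

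The NR1D proteins and their activating counterparts, the ROR receptors, bind Arntl next to its start site, and that stretch is shown because Arntl was the member that rose in 2 tissues. RefSeq promoter windows of build GRCm38.p6, from 250 bases before to 50 after a start site, were searched on both strands for the E-box CACGTG (in 7.15% of 32851 windows), the D-box TTATGTAA or TTACGTAA (1.06%) and the ROR core TAGGTCA (2.61%). Windows were matched for 9 of the 10 members; Per2 had none and was not searched. These motifs do not overlap each other in the windows of the members. A match describes letters and not a bound site. With the start site as base 1, the ROR core lies at bases 31 to 37 of the second Arntl window, at chr7:113207529-113207558 on the plus strand, in capitals.
Arntl ROR core: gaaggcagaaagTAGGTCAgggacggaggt

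Clock, the usual partner of ARNTL, was 0.667 times as abundant in RYGB as in sham WAT and passed nowhere else. Its level was 66.5, 85.3, 126 and 95.6 CPM in RYGB WAT and 127.9, 137.1, 159.1, 129.9 and 145.8 CPM in sham WAT. The groups did not overlap, as for 22% of WAT genes with RYGB lower, and Clock fell (-0.61 ± 0.17, adjusted p = 0.0172; -0.43 after median-of-ratios scaling, adjusted p = 0.0388). Its mean was higher after RYGB in duodenum (189 ± 62.0 CPM in RYGB, 116 ± 18.3 CPM in sham, adjusted p = 0.127) and lower in jejunum (107 ± 26.9 CPM in RYGB, 136 ± 9.97 CPM in sham, adjusted p = 0.165).

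Npas2, which can take the place of CLOCK beside ARNTL, was 2.24 times as abundant in RYGB as in sham jejunum. It measured 39.3, 43.4, 51.4 and 59.4 CPM in RYGB jejunum, against 17.5, 19.9, 15.6, 22 and 32.9 CPM in sham jejunum. The groups did not overlap, as for 7.53% of jejunal genes with RYGB higher, and Npas2 rose (1.16 ± 0.22, adjusted p = 0.0117). In duodenum it was 27.5, 38.8, 51.2 and 84.4 CPM after RYGB and 13.6, 14.9, 22.4, 18.2 and 36.3 CPM after sham, and only sham library 5 reached into the RYGB range (1.19 ± 0.34, adjusted p = 0.0916). Its RYGB libraries in WAT were widely spread, at 1.6, 26.1, 14.6 and 6.8 CPM, against 2.5 to 7.6 CPM in sham WAT, and the difference did not pass (0.96 ± 0.57, adjusted p = 0.197). Without RYGB library 1 it was 1.59 with an adjusted p of 0.0165.

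**Figure D2:**
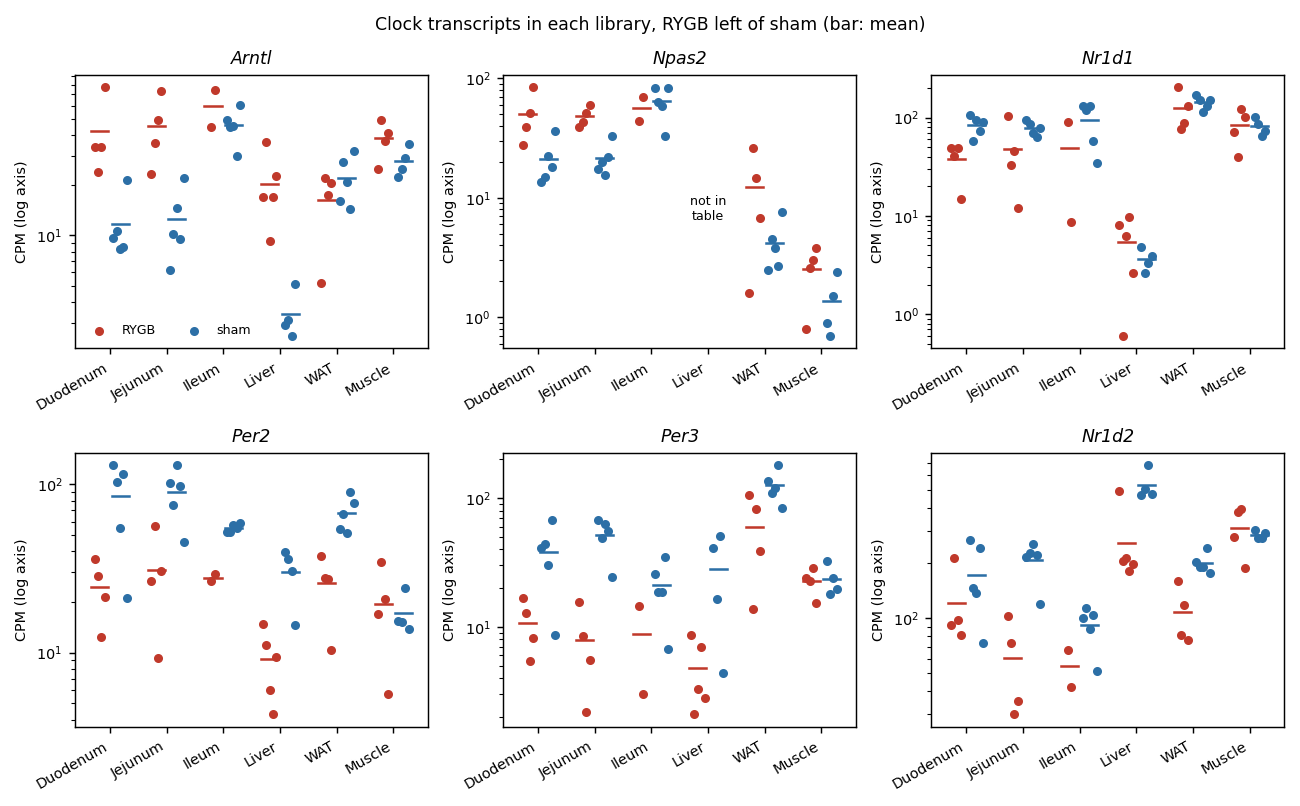
CPM (vertical log axis) of 6 clock genes in every library, by tissue, RYGB left of sham; points are libraries and bars are means. In duodenum, jejunum and liver the Arntl points of RYGB lie above those of sham, and in jejunum the Per3 and Nr1d2 points of RYGB lie below those of sham; Npas2 was not listed in liver.

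Per2, whose protein carries CRY into the nucleus, fell in 3 tissues: it was 0.342 times as abundant in RYGB as in sham jejunum, 0.302 times in liver and 0.38 times in WAT. In jejunum its level was 26.7, 56.3, 9.3 and 30.7 CPM in RYGB libraries, against 101.4, 75.3, 129.5, 97.6 and 45.5 CPM in sham libraries. The groups overlapped only through RYGB library 2 and sham library 5, and Per2 fell (-1.68 ± 0.45, adjusted p = 0.0382). The jejunal call was lost without RYGB library 1 (adjusted p = 0.08) or 3 (adjusted p = 0.0667), without sham library 1 (adjusted p = 0.0865), 2 (adjusted p = 0.0791), 3 (adjusted p = 0.0821) or 4 (adjusted p = 0.0868), and after median-of-ratios scaling (adjusted p = 0.0504), with log2 fold changes of -1.22 to -1.75.

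In liver Per2 was 14.8, 11.1, 6, 4.3 and 9.4 CPM after RYGB and 39.7, 36.2, 30.4 and 14.6 CPM after sham. The groups met at RYGB library 1 and sham library 4, and Per2 fell (-1.64 ± 0.42, adjusted p = 0.0478). This call did not hold without RYGB library 2 (adjusted p = 0.0959), 3 (adjusted p = 0.104) or 4 (adjusted p = 0.105), without any 1 of the 4 sham libraries (adjusted p of 0.0539, 0.0822, 0.163 and 0.106 in their order), or with a pseudocount of 0.1 (adjusted p = 0.0523), while the log2 fold change stayed between -1.43 and -1.94. In WAT Per2 was 37.6, 27.7, 27.4 and 10.3 CPM after RYGB, against 53.9, 66.1, 51.2, 90.2 and 77.6 CPM after sham, without overlap. It fell there (-1.46 ± 0.32, adjusted p = 0.00512) and passed in each of 14 alternative fits. Of WAT genes, 22% were likewise without overlap and lower in RYGB.

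Duodenal Per2 was 35.8, 28.4, 12.4 and 21.3 CPM in RYGB and 129.6, 103.3, 55.2, 115.1 and 21.1 CPM in sham libraries, and it did not pass (-1.6 ± 0.5, adjusted p = 0.102). Sham library 5 was the only sham library within the RYGB range, and without it the values were -2.03 and 0.0106. No other single library left out brought Per2 past the threshold. Without the libraries rich in pancreatic transcripts the values were -1.19 and 0.939, in a fit where 0 of 10930 genes passed. The 2 RYGB ileum libraries, at 26.6 and 29.2 CPM, lay below all 5 sham libraries, at 52.2 to 58.6 CPM. That difference of -0.95 ± 0.22 did not pass (adjusted p = 0.935), and 4.94% of ileal genes were likewise without overlap and lower in RYGB. In muscle Per2 was 16.9, 34.7, 20.9 and 5.7 CPM after RYGB and 13.8 to 24.2 CPM after sham.

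Per3, the period gene whose loss leaves the mouse clock running, was 0.154 times as abundant in RYGB as in sham jejunum, the lowest ratio of any member there. It measured 15.6, 8.5, 2.2 and 5.5 CPM in RYGB jejunum, against 67.4, 48.7, 62.6, 55.9 and 24.2 CPM in sham jejunum. The groups did not overlap, as for 6.75% of jejunal genes with RYGB lower, and Per3 fell (-2.72 ± 0.45, adjusted p = 0.00768), a call kept in 14 of 14 alternative fits. In WAT it was 105.4, 13.8, 82.3 and 39 CPM after RYGB, against 135.4, 108.5, 119.7, 179.6 and 84.1 CPM after sham. It fell there too (-1.36 ± 0.49, adjusted p = 0.0461), but RYGB library 1 lay within the sham range.

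The WAT call of Per3 was lost after median-of-ratios scaling (-1.17, adjusted p = 0.075), with library weights (-1.16, adjusted p = 0.0511), without RYGB library 2 (-0.79, adjusted p = 0.0756) or 4 (-1.27, adjusted p = 0.0899), and without any 1 sham library (adjusted p of 0.0849, 0.071, 0.0805, 0.101 and 0.0502 in their order). In liver Per3 was 8.6, 2.1, 3.3, 7 and 2.8 CPM after RYGB and 41.1, 16.6, 50.7 and 4.4 CPM after sham, and it did not pass (-2.03 ± 0.63, adjusted p = 0.0669; -2.21 with an adjusted p of 0.0428 after scaling). Duodenum showed 16.7, 12.8, 5.4 and 8.2 CPM in RYGB against 40.6, 44.1, 30.3, 67.8 and 8.6 CPM in sham libraries (-1.59 ± 0.51, adjusted p = 0.107), and sham library 5 was again the only one within the RYGB range. In muscle the RYGB libraries held 15.2 to 28.9 CPM and the sham libraries 17.9 to 32.4 CPM.

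Of the 9 members searched, Per3 is the one with D-boxes in its window, the element bound by the output factors DBP, TEF and HLF and by their repressor NFIL3. Its 250 bases before the start site are shown because Per3 had the largest fitted change of the members, and because those factors are described further on. The capitals mark 2 copies of TTATGTAA, at 205 to 198 and 158 to 151 bases before the start site, in chr4:151044666-151044915 of GRCm38.p6 on the minus strand, written 5′ to 3′ along the gene.
Per3 upstream window: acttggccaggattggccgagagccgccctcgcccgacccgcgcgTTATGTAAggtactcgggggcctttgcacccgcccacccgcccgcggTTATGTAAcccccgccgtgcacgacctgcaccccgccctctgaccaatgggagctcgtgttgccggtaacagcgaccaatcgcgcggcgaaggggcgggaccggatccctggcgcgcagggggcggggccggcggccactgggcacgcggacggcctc

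Per1, an immediate target of ARNTL and of glucocorticoid receptor in mice, passed in none of the 5 tissues that list it. In jejunum it was 15.9, 21.6, 5.5 and 15.8 CPM after RYGB and 21.1, 19.6, 18, 27.8 and 14.4 CPM after sham (-0.54 ± 0.33, adjusted p = 0.299). In muscle it was 23.7, 65, 16.6 and 13.2 CPM after RYGB, against 42.4, 46, 54.1 and 63.8 CPM after sham (-1.04 ± 0.41, adjusted p = 0.663). Muscle RYGB library 2 lay above every sham library, and the other RYGB libraries lay below all of them. Without RYGB library 2 the values were -1.5 and 0.0464, and no other alternative for muscle brought Per1 past the threshold. The RYGB libraries of WAT were also spread, at 72.4, 104.7, 22.4 and 21 CPM against 57.7 to 76.5 CPM in sham libraries. There RYGB library 1 lay within the sham range, library 2 above it, and libraries 3 and 4 below it. An E-box lies 166 to 161 bases before the start site of the first Per1 window, at chr11:69098771-69098800 on the plus strand, and another 60 to 55 bases before that of Cry1, at chr10:85185097-85185126 on the minus strand. They are shown, with the E-box in capitals, as the motif through which ARNTL acts, and Per1 and Cry1 were the members whose searched windows held it.
Per1 E-box: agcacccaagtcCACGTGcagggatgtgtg
Cry1 E-box: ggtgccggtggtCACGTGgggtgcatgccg

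Cry1, the stronger repressor of the cryptochromes, did not pass in any of the 6 tissues. In liver its RYGB libraries, at 14.9, 23.2, 13.7, 15.7 and 12.2 CPM, lay above the sham libraries, at 6.9, 10.7, 12.1 and 7.3 CPM, by a narrow margin. Of liver genes, 4.34% were likewise apart with RYGB higher, and the difference for Cry1 was 0.73 ± 0.34 (adjusted p = 0.151). In the other 5 tissues its groups overlapped, with log2 fold changes of -0.44 to 0.23.

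Cry2, the second cryptochrome, was 0.499 times as abundant in RYGB as in sham WAT. It measured 69.5, 17.3, 63.6 and 39.8 CPM in RYGB WAT, against 105.8, 92.1, 93.2, 103.5 and 81.7 CPM in sham WAT, without overlap. The same held for 22% of WAT genes with RYGB lower. Cry2 fell there (-1.16 ± 0.33, adjusted p = 0.0184; -0.98 after scaling, adjusted p = 0.0343). In duodenum the groups did not overlap either, at 15.4, 14.6, 9.1 and 12.1 CPM in RYGB and 19.4, 21.6, 25.7, 22.4 and 17.3 CPM in sham libraries, as for 1.69% of duodenal genes with RYGB lower, and the test was not passed (-0.7 ± 0.21, adjusted p = 0.093). Liver Cry2 stood at 24.3 and 23 CPM in RYGB libraries 3 and 4 and at 2.6 to 5.7 CPM in the other 3, against 1.4 to 5.4 CPM in sham libraries. Hepatocyte markers held 10.6% and 11.6% of CPM in RYGB libraries 3 and 4 and 4.03% to 5.58% in the other 3, against 3.07% to 4.5% in sham libraries, and their part in Cry2 was not tested. In muscle, RYGB library 2 held 234.5 CPM, while the other RYGB libraries held 37.6 to 55 CPM and the sham libraries 70.8 to 101.4 CPM. A transcript annotated on the opposite strand, D930015M05Rik, covers 4.67% of Cry2 exon bases and was not listed in the tables.

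Nr1d2, which with Nr1d1 represses Arntl, was 0.292 times as abundant in RYGB as in sham jejunum and 0.542 times in WAT. In jejunum it was 103.2, 73.4, 29.9 and 35.5 CPM after RYGB and 216.4, 226, 253.6, 220.7 and 118.7 CPM after sham. The groups did not overlap, as for 6.75% of jejunal genes with RYGB lower, and Nr1d2 fell (-1.89 ± 0.37, adjusted p = 0.0131). In WAT it was 158.6, 80.9, 117.2 and 75.8 CPM after RYGB and 202.3, 190.3, 189, 239.9 and 175.2 CPM after sham, again without overlap, and it fell (-0.93 ± 0.21, adjusted p = 0.00609; -0.75 after scaling, adjusted p = 0.0352). Both calls were kept in all 14 alternative fits. In WAT, 22% of all genes were likewise apart with RYGB lower.

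In liver Nr1d2 was 491.2, 204.4, 213.7, 179.8 and 198.5 CPM in RYGB and 468.9, 503.3, 681.9 and 476.1 CPM in sham libraries. RYGB library 1 (animal R1) was the only RYGB library within the sham range. The difference missed the threshold with it (-1.14 ± 0.33, adjusted p = 0.0572) and passed without it (-1.4, adjusted p = 0.0222). In muscle Nr1d2 was 186.6 to 393.1 CPM after RYGB and 272.4 to 301.1 CPM after sham, and the RYGB libraries lay on both sides of the sham range.

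Nr1d1, the heme-binding receptor that represses Arntl, passed in no tissue. In jejunum it was 102.8, 32.8, 45.4 and 12.1 CPM after RYGB, against 93.8, 86.6, 70, 63 and 79.1 CPM after sham. RYGB library 1 (animal R1) was the highest of the 9 libraries and the other 3 were below every sham library (-1.04 ± 0.47, adjusted p = 0.163; -1.52 with an adjusted p of 0.0401 without library 1). In duodenum all RYGB libraries, at 49.1, 40.3, 48.5 and 14.7 CPM, were below the sham libraries, at 107.2, 57.2, 95.4, 72.7 and 89.5 CPM, and the test was not passed (-1.23 ± 0.33, adjusted p = 0.0807). Of duodenal genes, 1.69% were likewise apart with RYGB lower. In ileum the RYGB libraries were far apart, at 90.1 and 8.7 CPM. Nr1d1 shares 263 exon bases (8.55%) with Thra on the other strand, and since the strand setting of the counting is not known from the labels, reads there cannot be assigned to either. Thra had log2 fold changes of -0.22 in duodenum and 0.03 in jejunum (adjusted p of 0.572 and 0.925), and it fell in WAT (-0.53 ± 0.16, adjusted p = 0.022).

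Whether the jejunal changes differed from those of the other tissues was tested over the animals that gave both tissues, with the animal as a block. Set against muscle (3 RYGB and 4 sham animals), the RYGB effect in jejunum was higher for Arntl, by 1.23 ± 0.32 on the log2 scale (adjusted p = 0.0416), and lower for Per2 (-2.05 ± 0.44, adjusted p = 0.0223), Per3 (-2.69 ± 0.57, adjusted p = 0.0223) and Nr1d2 (-1.9 ± 0.49, adjusted p = 0.0419). These are 4 of 10 members, where 10.4% of all genes passed. None of the 4 passed without animal W11, W12 or W15 (adjusted p of 0.0603 to 0.123). Without R4, Arntl (adjusted p = 0.0934) and Nr1d2 (adjusted p = 0.0671) no longer passed, nor did Arntl without R1 (adjusted p = 0.0887) or Nr1d2 without R2 (adjusted p = 0.0513).

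Against WAT (3 RYGB and 5 sham animals), the jejunal effect was higher for Arntl by 2.12 ± 0.34 (adjusted p = 0.00166), 1 of 10 members where 29.8% of all genes passed (1986 higher and 1021 lower in CPM, 1264 higher and 1692 lower after median-of-ratios scaling). The Arntl difference passed in 10 of 10 alternative fits, and after scaling Per1 (-0.65, adjusted p = 0.0495), Nr1d1 (-0.64, adjusted p = 0.0306) and Nr1d2 (-0.98, adjusted p = 0.0393) passed as well. Without R2, Npas2 (1.2, adjusted p = 0.0339), Per3 (-1.87, adjusted p = 0.00312) and Nr1d2 (-0.98, adjusted p = 0.0308) passed beside it. No member passed against duodenum (3 RYGB and 5 sham animals, 2.4% of all genes) or liver (4 RYGB and 4 sham animals, 0.0673% of all genes). At an unadjusted p below 0.05 there were 3 members of 10 against duodenum, where 20.4% of all genes did so: Nr1d2 (-1.4 ± 0.36, adjusted p = 0.0629), Clock (-0.89 ± 0.24, adjusted p = 0.0665) and Per3 (-1.4 ± 0.39, adjusted p = 0.0717). There were 0 against liver, beside 18.3% of all genes, and Cry2 had the smallest p there (-1.7 ± 0.82, adjusted p = 0.296).

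**Figure D3:**
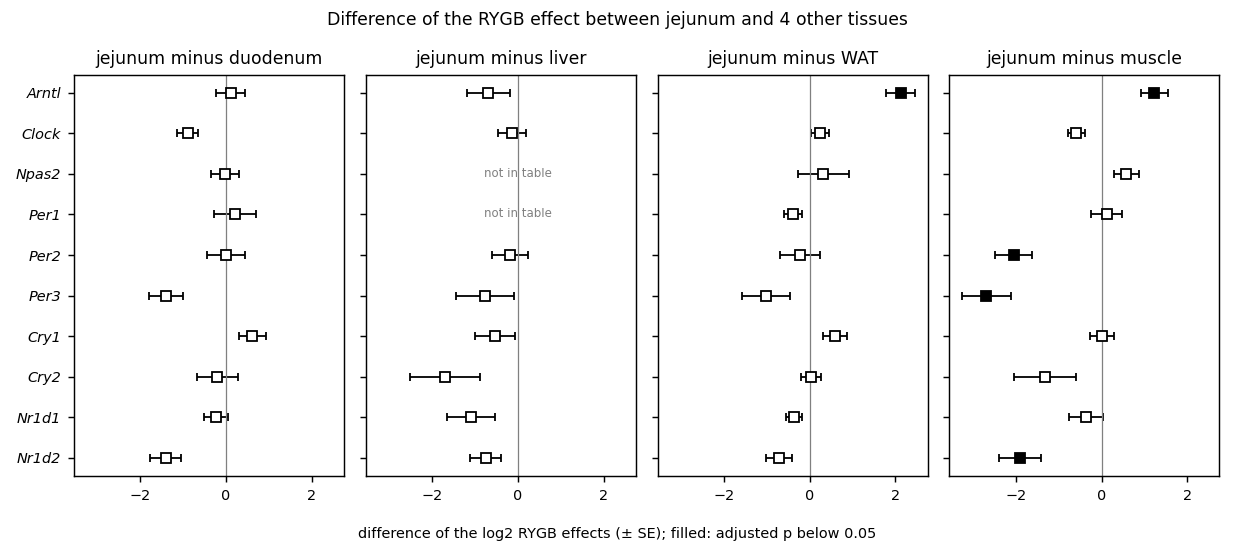
Difference between the log2 RYGB effect in jejunum and that in duodenum, liver, WAT or muscle (horizontal axis, ± SE) for each clock gene; filled squares have an adjusted p below 0.05. Against muscle, Arntl lies right of 0 and Per2, Per3 and Nr1d2 left of it; against WAT the filled square is Arntl, at 2.12.

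Clock output genes are transcripts that the core loop drives directly, among them the transcription factors Dbp, Tef and Hlf, which bind D-boxes, and Nfil3, which represses through the same element. Of 9 listed in jejunum 4 fell and 0 rose, where 6.29% of all jejunal genes fell, with a median of -0.85 where that of all genes was 0.08. Dbp measured 22.8, 2.8, 2 and 2.6 CPM in RYGB jejunum, against 95.3, 80.4, 58.1, 72.8 and 31.4 CPM in sham jejunum. It fell without overlap of the groups, as for 6.75% of jejunal genes with RYGB lower (-3.53 ± 0.58, adjusted p = 0.00746), with R1 the highest RYGB and W3 the lowest sham animal. Tef averaged 42.5 ± 32.1 CPM in RYGB and 137 ± 20.7 CPM in sham jejunum (-1.91 ± 0.37, adjusted p = 0.0138). Hlf (-2.28, adjusted p = 0.041) and Wee1, a cell cycle kinase with clock-driven transcription (-0.99, adjusted p = 0.0442), were the others. Dbp and Tef passed with each library left out in turn; Hlf was lost without RYGB library 2 or 3 or sham library 1, 2, 3 or 4 (adjusted p of 0.0709 to 0.106), and Wee1 without RYGB library 1, 2 or 3 or sham library 1, 2, 3 or 4 (0.0629 to 0.107).

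In liver Hlf was 97.2, 41.7, 53.1, 82.2 and 155.6 CPM in RYGB libraries, against 369.8, 376.4, 326.3 and 218.7 CPM in sham libraries. It fell (-2.01 ± 0.37, adjusted p = 0.0302), as did Wee1 (-2.16, adjusted p = 0.0351), while Nfil3 rose (2.54 ± 0.63, adjusted p = 0.0459). That was 3 of the 9 output genes listed in liver, and 3 of 9 passed in WAT, while 4.63% of all genes passed in liver and 40.6% in WAT. All 3 liver calls were lost without RYGB library 2, 3 or 4 or sham library 2, 3 or 4 (adjusted p of 0.0516 to 0.163). In WAT Nfil3 was 9.5, 156.3, 9.5 and 18.5 CPM in RYGB and 3.5, 4.6, 3.6, 3.7 and 10.2 CPM in sham libraries, with animal R2 far above the rest. It rose (2.08 ± 0.70, adjusted p = 0.0364; 0.0518 to 0.0742 without RYGB library 4 or sham library 1, 2, 3 or 4), and Hlf (-1.08, adjusted p = 0.0208; 0.0535 without sham library 4) and Bhlhe41, a repressor at E-boxes (-1.62, adjusted p = 0.0128), fell. None of the 8 output genes listed in duodenum, 9 in ileum and 10 in muscle passed. Dbp came near in duodenum, at 15.8, 15.6, 6.1 and 2.7 CPM in RYGB and 43.2, 84.4, 62.1, 86.9 and 25 CPM in sham libraries (-2.59 ± 0.49, adjusted p = 0.0535). Bhlhe40 passed nowhere (-0.45 to 0.59), nor did Ciart, a repressor of CLOCK and ARNTL, which was listed in jejunum, ileum and muscle only, at means of at most 3.4 CPM.

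Of the ROR receptors, which activate Arntl, 2 of 3 were listed per tissue and Rora fell in WAT (-0.66 ± 0.18, adjusted p = 0.0142; -0.47 and 0.128 after scaling), with no call in the other 5 tissues. Of 14 clock modifiers (kinases, ubiquitin ligases and corepressors that act on clock proteins) 8 fell in WAT, where 26.3% of all genes fell, among them the kinases Gsk3b (-1.19, adjusted p = 0.00277) and Prkaa1 (-0.99, adjusted p = 0.00503). The calls there also took in Fbxl21 (-1.07, adjusted p = 0.00267), the corepressor Ncor1 (-0.57, adjusted p = 0.0158), Fbxw11 (-0.56, adjusted p = 0.0103), Sirt1 (-0.54, adjusted p = 0.0118) and Btrc (-0.49, adjusted p = 0.0326). After scaling 6 of the 14 fell, without Ncor1 (adjusted p = 0.0527) and Btrc (adjusted p = 0.0588), and 1 rose; Btrc was also lost without RYGB library 1 or 2 or any 1 sham library (adjusted p of 0.0568 to 0.0707). In jejunum 2 of 14 fell (6.29% of all genes), Cipc, an inhibitor of CLOCK (-1.31 ± 0.26, adjusted p = 0.0126), and the deacetylase Sirt1 (-0.56 ± 0.15, adjusted p = 0.0315; 0.0542 to 0.0729 without RYGB library 1 or 3 or any 1 sham library), and in the other 4 tissues no modifier passed.

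Glucocorticoid response genes were set beside the clock because that hormone can reset it. Fkbp5, a chaperone induced by the glucocorticoid receptor, was 65.6, 241.3, 7.8 and 40.9 CPM in RYGB jejunum, against 4.2, 8.6, 3.7, 5.5 and 10.4 CPM in sham jejunum. It rose there (2.81 ± 0.76, adjusted p = 0.0384), with the lowest RYGB library inside the sham range, and was lost without RYGB library 1 or sham library 1, 2, 3 or 4 and after scaling (adjusted p of 0.0521 to 0.0923). In liver it was 20.1, 90.3, 38.1, 10.2 and 11.9 CPM in RYGB and 7.9, 5.9, 2.1 and 0.4 CPM in sham libraries, and it rose (2.66 ± 0.68, adjusted p = 0.0478; 0.066 to 0.163 without RYGB library 2, 3 or 4 or sham library 2, 3 or 4). The cell cycle inhibitor Cdkn1a rose in jejunum (1.3 ± 0.22, adjusted p = 0.00721), and the phosphatase Dusp1 fell in WAT (-0.88 ± 0.31, adjusted p = 0.0423; 0.0777 to 0.106 after scaling or without RYGB library 1 or 3 or sham library 1, 3 or 5). That was 2 of 7 listed genes in jejunum, 1 of 8 in liver and 1 of 8 in WAT, while 12.6% of all genes passed in jejunum, 4.63% in liver and 40.6% in WAT. None passed in the other 3 tissues. Animal R2 had the highest Fkbp5 of all libraries in each tissue that it gave. Its values were 392.5 CPM in duodenum, 241.3 in jejunum, 193 in ileum, 90.3 in liver, 265 in WAT and 263.4 in muscle. Animals R3 and R4 lay below every sham library in WAT (35.4 and 17.8 CPM) and in muscle (28.5 and 26.9 CPM).

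The balance of the loop in single animals was described by the ratio of Arntl CPM to Per2 CPM, a measure chosen with the values known and given without a test. Its median was 1.84 in RYGB and 0.103 in sham duodenum, 1.64 in RYGB and 0.114 in sham jejunum, and 2.4 in RYGB and 0.0839 in sham liver. In ileum the medians were 2.12 in RYGB and 0.853 in sham libraries, in WAT 0.72 in RYGB and 0.406 in sham libraries, and in muscle 1.62 in RYGB and 1.55 in sham libraries. The groups were apart in jejunum (0.639 to 5.29 in RYGB, 0.0611 to 0.486 in sham), ileum (1.68 to 2.56 in RYGB, 0.55 to 1.04 in sham) and liver (1.14 to 3.95 in RYGB, 0.073 to 0.349 in sham), and overlapped in duodenum, WAT and muscle. No share of all gene pairs that separate in this way was computed. With the mean of each tissue and operation subtracted, Pearson's r of Arntl over all libraries was -0.26 with Per2 and -0.64 with Per3.

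Within the sham arm, W3 was the animal with the highest Arntl to Per2 ratio in 5 of the 6 tissues, and with the highest Arntl to Per3 ratio in 6 of 6. W3 is sham library 5 in the gut segments and WAT and sham library 4 in liver and muscle, that is, the library that lay within the RYGB range for Per2 and Per3 in duodenum. Within the RYGB arm, R1 gave jejunum, liver, WAT and muscle and never had the highest ratio of its group. R1 had the highest Nr1d2 of the RYGB libraries in jejunum (103.2 CPM), liver (491.2 CPM) and WAT (158.6 CPM), and the lowest Arntl of them in jejunum (23.5 CPM), WAT (5.2 CPM) and muscle (25 CPM). R2, highest for Fkbp5 in all 6 tissues, was also the highest muscle library for Nfil3 (145.7 CPM) and Cry2 (234.5 CPM). The labels record no difference in treatment between these animals and the rest of their arms.

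**Figure D4:**
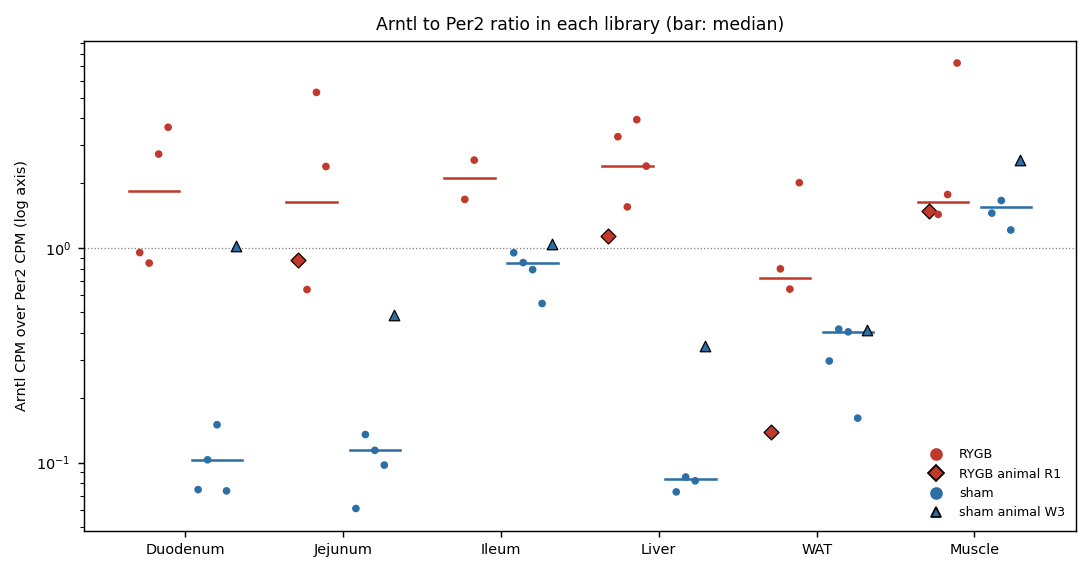
Ratio of Arntl CPM to Per2 CPM (vertical log axis) in every library by tissue, RYGB left of sham; bars are medians, diamonds mark animal R1 and triangles animal W3. In jejunum, ileum and liver all RYGB points lie above all sham points, and the sham animal W3 is the highest sham point in 5 of 6 tissues.

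Levels without bypass were described in the sham libraries, where tissues were compared over 8228 genes listed in all 6 tables with the animal as a block. Of 120 comparisons of a member between 2 tissues, 77 passed, a share near the 61% over all genes and pairs; Npas2 and Per1, not listed in liver, were not among them. Arntl ran from ileum (46.0 ± 11 CPM) over muscle (28.1 ± 5.66), WAT (22.2 ± 7.53), jejunum (12.5 ± 6.14) and duodenum (11.7 ± 5.59) to liver (3.4 ± 1.16). Muscle and WAT (adjusted p = 0.162) and jejunum and duodenum (adjusted p = 0.967) could not be separated, and the other neighbours differed. Clock ran from liver (168 ± 56.6 CPM) over WAT (140 ± 12.8), jejunum (136 ± 9.97), duodenum (116 ± 18.3) and ileum (104 ± 16.8) to muscle (66.0 ± 5.53), and of its neighbours only ileum and muscle differed (adjusted p = 0.00189).

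Per2 was 89.9 ± 31.4 CPM in jejunum, 84.9 ± 45.3 in duodenum, 67.8 ± 16.4 in WAT and 55.0 ± 2.89 in ileum, with no difference called between neighbours, and lower in liver (30.2 ± 11.1 CPM, adjusted p = 0.0155 against ileum). Its level in muscle was 17.1 ± 4.77 CPM, not separated from liver (adjusted p = 0.0735). Per3 was highest in WAT (126 ± 35.6 CPM), above jejunum (51.8 ± 16.9 CPM, adjusted p = 0.000537). The order below it was duodenum (38.3 ± 21.5 CPM), liver (28.2 ± 21.4), muscle (23.5 ± 6.46) and ileum (21.0 ± 10.4), with no neighbours separated. Per1 was 64.2 ± 7.81 CPM in WAT, 51.6 ± 9.51 in muscle, 20.2 ± 4.94 in jejunum, 19.9 ± 10.8 in duodenum and 13.7 ± 7.08 in ileum.

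Npas2, not tested between tissues, was 64.4 ± 20.9 CPM in ileum, 21.6 ± 6.77 in jejunum and 21.1 ± 9.16 in duodenum, against 4.22 ± 2.06 in WAT and 1.38 ± 0.763 in muscle. Cry1 was highest in ileum (50.4 ± 23.8 CPM, adjusted p = 0.0261 against jejunum at 22.8 ± 1.38 CPM). WAT (20.5 ± 4.3), duodenum (20.1 ± 2.41) and muscle (18.1 ± 1.87) followed without separation, and liver was lowest (9.25 ± 2.55 CPM, adjusted p = 0.015 against muscle). Cry2 was highest in WAT (95.3 ± 9.71 CPM) and muscle (79.7 ± 14.5 CPM), not separated from each other (adjusted p = 0.373), then lower in ileum (32.6 ± 6.45 CPM, adjusted p = 1.54e-05 against muscle), jejunum (23.5 ± 3.61) and duodenum (21.3 ± 3.17), and lowest in liver (3.43 ± 1.64 CPM, adjusted p = 6.86e-10 against duodenum).

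The paired receptors went apart in liver. Nr1d2 was highest there (533 ± 101 CPM), above muscle (285 ± 13.6 CPM, adjusted p = 0.00193), jejunum (207 ± 51.5), WAT (199 ± 24.6), duodenum (173 ± 79.9) and ileum (91.4 ± 24.4 CPM, adjusted p = 0.00681 against duodenum), and muscle, jejunum, WAT and duodenum were not separated from their neighbours in this order. Nr1d1 was lowest in liver (3.65 ± 0.933 CPM, adjusted p = 1.5e-12 against jejunum) and highest in WAT (143 ± 21.8 CPM, adjusted p = 0.00969 against ileum), with ileum (94.6 ± 45.4), duodenum (84.4 ± 19.6), muscle (81.4 ± 15.6) and jejunum (78.5 ± 12.4) in between and not separated. Per kilobase of exon, sham liver held 98.5 ± 18.6 CPM per kb of Nr1d2 and 1.19 CPM per kb of Nr1d1, and sham WAT held 36.9 ± 4.55 CPM per kb of Nr1d2 and 46.5 ± 7.09 CPM per kb of Nr1d1. On that scale one or the other of these receptors ranked first among the members in each of the 6 tissues. A low level in liver was not particular to Nr1d1. Cry2 was lowest there too, and Thra held 0.2 to 0.7 CPM in sham liver, against 50.2 to 69.5 CPM in sham jejunum. As with Cry2, RYGB liver libraries 3 and 4 had the highest Dbp (13.3 and 6.5 CPM) and Thra (3.9 and 3.9 CPM) of their group. What these transcripts have in common was not tested.

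**Figure D5:**
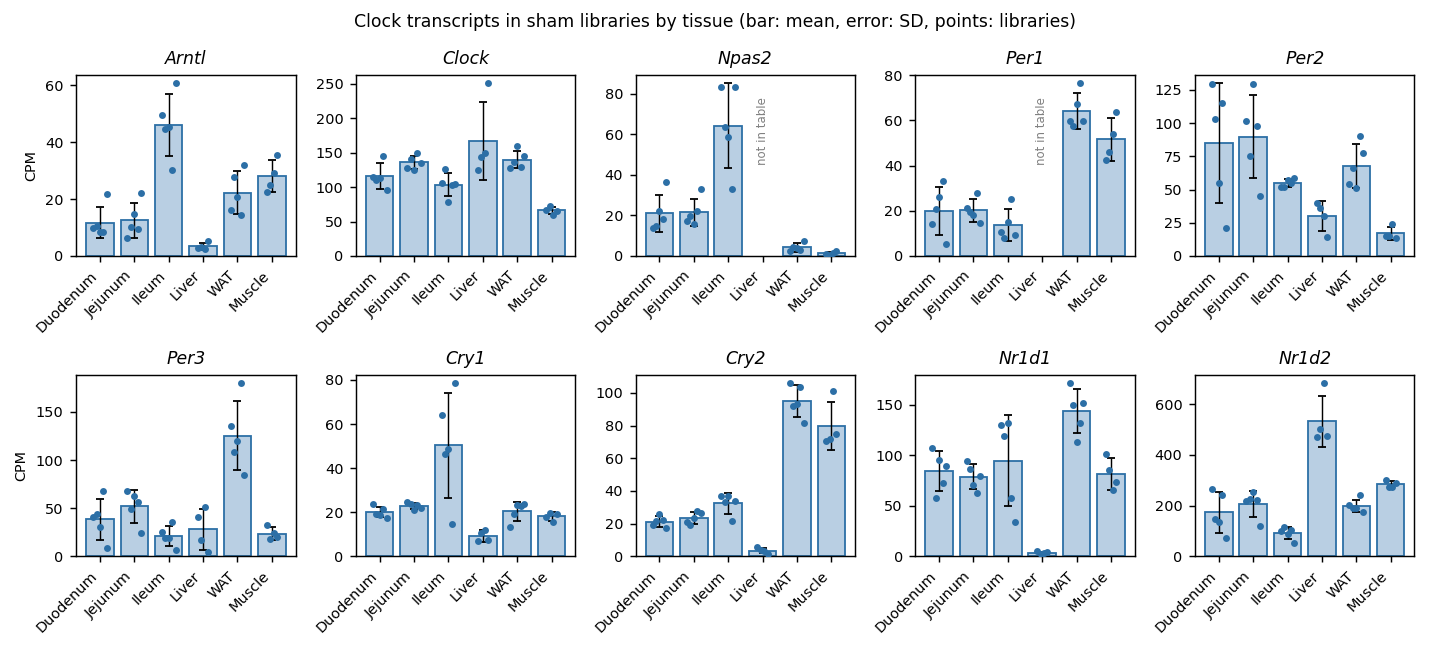
CPM (vertical axis, starting at 0) of each clock gene in the sham libraries by tissue; bars are means, error bars SD and points libraries. Liver is lowest for Arntl, Cry1, Cry2 and Nr1d1 and highest for Clock and Nr1d2, and ileum is highest for Arntl, Npas2 and Cry1.

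The genes most like Arntl and Nr1d1 were ranked by Pearson's r over the 51 libraries, after the mean of each tissue and operation was subtracted from log2(CPM + 1), among 7747 genes with a mean of at least 5 CPM. The libraries share 10 animals and the tissues' own scales, so r is a description. Arntl ran most strongly with Hspa1b (r = 0.61), Zfp36l1 (0.61), Nfil3 (0.57), Zbtb2 (0.55) and Ypel2 (0.55), and most strongly against Dbp (r = -0.76), Tef (-0.66), F3 (-0.65), Per3 (-0.64) and Nr1d2 (-0.60). Of the 5 genes that ran most against it, 2 are thus members and 2 are clock output genes. Nr1d1 ran with Dbp (r = 0.72), Anxa7 (0.67), Aldoa (0.63), Tradd (0.61) and Gpd1 (0.61), and against Foxn2 (-0.66), Cd36 (-0.65), Ubfd1 (-0.65), Serinc3 (-0.65) and Slc30a5 (-0.65). Among the members, Per3 and Nr1d2 (r = 0.71) and Per2 and Nr1d2 (r = 0.65) ran together, and Arntl ran against Nr1d1 (r = -0.55).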

How the data were processed

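RNA of 51 libraries was extracted with a column kit and made into libraries with PrepX reagents, per the labels' protocols. The authors deposited gene-level CPM per tissue, rounded to 1 decimal and, as a test of each table showed, limited to genes that reach 1 CPM in a number of libraries equal to the size of the smaller group. HTSeq and GRCm38 are named in the submitters' processing notes; aligner, annotation release and strand setting were not given in the sources used here. Repeated lines (339 in ileum, 374 in WAT) and lines without an identifier (2 in ileum, 6 in liver) were dropped. Library pairs with identical values numbered 0.

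Groups follow title and surgery label. Within a tissue, p-values measure the spread between animals. In fits between tissues they measure the spread left once each animal's own level is taken out. In each tissue, limma 3.58.1 (R 4.3.3; lmFit, then eBayes with trend and robust options) was run on log2(CPM + 1) with surgery as the term, two-sided, with Benjamini-Hochberg adjustment over all genes and a threshold of 0.05. This scale understates changes of low genes. Fits between tissues had the animal as a block. Whole reads could be recovered in 5 libraries, so no count test was run. The fits were tested on simulated data, where 100 genes were given a log2 difference of 2 and another 100 one of 1. Ileum recovered 35 of the larger and 0 of the smaller differences, liver 57 and 10, and jejunum minus liver 13 and 1. The counts were 94 and 47 in duodenum, 96 and 51 in jejunum, 94 and 67 in WAT, and 91 and 48 in muscle. Jejunum minus duodenum, WAT and muscle recovered 57 and 3, 73 and 17, and 68 and 2. A missing call in ileum or against liver thus says little about differences of these sizes. Python 3.11.15, pandas 2.3.3 and matplotlib 3.10.9 did the rest; promoters came from RefSeq and coordinates from GENCODE on GRCm38.

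The named genes are the 10 members, the genes of 4 other lists past the threshold (1 of them is not reported here), Dbp, Tef, Nfil3, Bhlhe40 and Ciart whatever their p, and for Arntl and Nr1d1 the 5 genes with the highest and lowest r. Members, lists and alternatives were chosen with earlier results of these data known. Alternatives were median-of-ratios scaling, a pseudocount of 0.1, a mean of at least 5 CPM, the replicate number as a block, library weights, each library or animal left out, and the duodenum without libraries above 1% pancreatic transcripts; for the other lists, scaling and left-out libraries were added after seeing the data.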

Additional observations from a re-analysis of the deposited data

Results flagged for a closer look

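Of 106 groups of 4 or 5 libraries of a member, 8 held a library far from the others of its group by Dixon's test at 95% confidence. For independent groups of normal values that test flags about 1 in 20, and 8 is not far above that rate. The groups here share animals, so the flags are a description. Animal W3 accounts for 2: Arntl in duodenum sham library 5, at 21.6 CPM where the other sham libraries held 8.3 to 10.6, and Nr1d2 in jejunum sham library 5, at 118.7 CPM against 216.4 to 253.6. Animal R1 accounts for another 2: Arntl in WAT RYGB library 1, at 5.2 CPM where the other RYGB libraries held 17.6 to 22.1, and Nr1d2 in liver RYGB library 1, at 491.2 CPM against 179.8 to 213.7. The rest were Nr1d1 in duodenum RYGB library 4, at 14.7 CPM against 40.3 to 49.1, Clock in muscle RYGB library 2, at 86.4 CPM against 58.7 to 61.2, Cry2 in ileum sham library 4, at 21.4 CPM against 33.4 to 37.1, and Cry2 in muscle sham library 3, at 101.4 CPM against 70.8 to 74.6. Ileum sham library 4 is also the library with 4.16% Paneth cell transcripts, whose part in its Cry2 level was not tested.

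The RYGB effect differed between tissues by limma's interaction test in 5 cases. For Arntl it was higher in jejunum than in WAT by 2.12 on the log2 scale and than in muscle by 1.23. It was lower in jejunum than in muscle for Per2 (-2.05), Per3 (-2.69) and Nr1d2 (-1.9). Against WAT this was 1 of 10 members where 29.8% of all genes passed, and against muscle 4 of 10 where 10.4% passed. The muscle values rest on 3 RYGB and 4 sham animals, and none of the 4 passed without animal W11, W12 or W15.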

How the results depend on the processing

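Of 1160 alternative values of single members, 1074 kept direction or side of the threshold as reported, 49 lost a call, 37 gained one and 0 turned round while called; 59 uncalled values changed sign. Duodenum, with 0 members called, had 1 with a mean of at least 5 CPM, 4 with the replicate block, 7 with library weights and 0 without the pancreas-rich libraries, and 0 to 4 with a library left out. Jejunum, with 5, kept 4 to 5 in all other settings and 4 to 7 with a library left out. Ileum had 0, 1 with the replicate block and 0 to 0 with a library left out. Liver, with 2, had 1 at a pseudocount of 0.1, 0 with the replicate block, 4 with library weights and 0 to 4 with a library left out. WAT, with 5, had 4 to 5, and 4 to 6 with a library left out; muscle had 0, and 0 to 1. Jejunum minus duodenum had 0 (0 to 1), minus liver 0 (0 to 0), minus WAT 1, 4 after median-of-ratios scaling (1 to 4 with an animal left out), and minus muscle 4 (0 to 4). Sham tissue pairs numbered 77, and 67 to 76 otherwise. Replicate numbers name different animals in the 2 arms, and the r of same-numbered libraries ran from -0.35 to 0.56; it reached 0.56 in duodenum and 0.38 in ileum, where both RYGB libraries were closest to their own number, but was below 0 for at least 1 number in every tissue, so the block is not taken as a pairing. The block fit kept only libraries whose number occurs in both arms, 2 numbers in ileum and 4 in each other tissue. In duodenum it thus left out sham library 5. The 4 members gained there (Arntl, Npas2, Per2 and Per3) were those gained by leaving out that library alone. With the block, Per3 in ileum stood at -1.54 (limma adjusted p = 0.0201) and Arntl in liver at 2.13 (adjusted p = 0.114). Calls over all genes varied: 38 in duodenum became 105 with a mean of at least 5 CPM, 450 with the block and 2140 with library weights; 1390 in jejunum became 455 with the block; 0 in ileum became 593 with the block and 1 with weights; 476 in liver became 992 after scaling, 7 with the block and 3258 with weights; 0 in muscle became 1 at a pseudocount of 0.1, 2 with the block and 13 with weights; and 6 for jejunum minus liver became 22 after scaling. With 1 library left out the calls over all genes were 1 to 982 in duodenum (0 without the pancreas-rich libraries), 484 to 2258 in jejunum, 0 to 46 in ileum, 3 to 2253 in liver, 3936 to 6151 in WAT and 0 to 24 in muscle, and with 1 animal left out 59 to 312 for jejunum minus duodenum, 0 to 121 minus liver, 2322 to 3036 minus WAT and 292 to 1726 minus muscle. Higher calls were 36.8% in duodenum and 26% after scaling, and 21.9% and 40.5% for jejunum minus duodenum. The cause of these shifts was not tested. Of 25 calls in the other lists, 72 of 250 alternative values did not pass and 0 turned round. Depth is unknown in 46 libraries, so no counting error can be given there.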
